A study of Mus musculus with 20 samples.

Results

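Hepatocytes move bile acids from blood to bile through a small set of membrane transporters, and 10 of them are described here across liver and 3 kinds of mouse liver tumor. They were chosen by name as the known carriers of bile acids and organic anions in the hepatocyte, and all 10 were found among the 50559 genes in the deposited counts: the uptake carriers Slc10a1, Slco1a1, Slco1a4 and Slco1b2, the canalicular exporters Abcb11 and Abcc2, and the basolateral exporters Abcc3, Abcc4, Slc51a and Slc51b. RNA sequencing covered 20 libraries, 5 in each of 4 groups, all from liver of female C57Bl6J wild-type mice that were young adults when injected and fasted before collection. Each library carried its own animal identifier.

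Tumors arose after hydrodynamic gene transfer, the rapid tail vein injection of a large volume of plasmid, which reaches a subset of hepatocytes. All 3 tumor groups received a MYC plasmid driven by the EF1a promoter together with SB100X, the Sleeping Beauty transposase. This enzyme inserts plasmids built as its transposons into the genome. The Aldafermin_MYC group (Aldafermin + MYC) also received a plasmid for Aldafermin, an engineered analog of human FGF19 (also called NGM282) with a shortened and substituted amino terminus. The FGF19_MYC group (FGF19 + MYC) received unmodified FGF19, and the sgTrp53_MYC group (sgTrp53 + MYC) received a plasmid with Cas9 and a guide against Trp53. The labels give no treatment for that last group, whose condition came from the sample titles. Aldafermin + MYC and FGF19 + MYC tumors are jointly called FGF-driven tumors below. The Liver group is labelled non treated, whereas the study describes control livers that received an RFP plasmid. Each tumor library was made from an individual nodule.

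Bile acids returning from the gut are taken up at the basolateral (sinusoidal) membrane, mainly with sodium by Slc10a1 and without sodium by the organic anion carriers of the Slco family, and are pumped into the bile canaliculus by Abcb11, with Abcc2 carrying conjugated anions. Abcc3, Abcc4 and the paired subunits Slc51a and Slc51b instead return them to blood, and are known for rising when bile flow is blocked. FGF19, and its mouse counterpart FGF15, is released by the ileum when bile acids activate the receptor FXR (Nr1h4) and represses bile acid synthesis in the liver through FGFR4.

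The count of reads on genes ran from 18004977 to 44427184 in the Aldafermin + MYC, FGF19 + MYC and Liver libraries and from 54042455 to 66354724 in the sgTrp53 + MYC libraries. The last were deposited in a table of their own, with 11.1% to 14.6% of reads ambiguous between genes against 3.03% to 6.30% elsewhere, so table and group cannot be told apart in any comparison with them. Trp53 itself, the target of the guide, averaged 32.8 CPM in livers, 46.8 in sgTrp53 + MYC tumors, 138 in Aldafermin + MYC tumors and 139.5 in FGF19 + MYC tumors. It was lower in sgTrp53 + MYC than in FGF-driven tumors (log2 difference 1.57, FGF-driven minus sgTrp53), and its levels of 18.7 to 79.9 CPM in sgTrp53 + MYC tumors overlapped those of 28.8 to 36.4 CPM in livers. Levels below are counts per 1000000 reads (CPM) after TMM normalisation, changes are log2 fold changes from edgeR's quasi-likelihood test, and a gene was called changed at an adjusted p under 0.05 over the 14333 genes tested. Slc51a was the member too low to be tested with the others, which left 9.

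The promoters of the genes are shown first, because every tumor carried MYC, which binds CACGTG (the E-box) with its partner MAX, and because nuclear receptors such as FXR bind copies of the hexamer AGGTCA. RefSeq promoter windows (GRCm38.p6 table, 250 bases before to 50 after the start) were at hand for 9 of the 10 genes, all but Abcc3, and were placed on GRCm39 by exact match. Slc10a1 and Abcc4 have 2 annotated starts each, which makes 11 windows for the 9 genes, and a gene is counted where any of its windows holds the letters. CACGTG occurred in 2 of the 9 genes, Abcc4 and Slc51a, and in 8.09% of all 27025 genes in the table. AGGTCA, on either strand, occurred in 7 of the 9, all but Slco1a4 and Abcc4, and in 18.1% of all genes. By window, the shares were 2 of 11 beside 7.15% of all 32851 windows for CACGTG and 7 of 11 beside 16.3% for AGGTCA. The inverted repeat of that hexamer with a single base between the copies (IR1, the FXR type) and the direct repeat of the same spacing (DR1) occurred in none of the 9 and in 0.0111% and 0.0481% of all genes. TATAAA stood in Slc10a1, Slco1a1 and Slco1b2 and in 15.7% of all genes, the antioxidant response core TGACNNNGC in Abcc2 and Abcc4 and in 14% of all, and the palindromic HNF1 element in none of the 9 and in 0.0111% of all. These matches describe letters in a window and not binding. Only exact copies of the letters were searched, so imperfect repeats were not counted. The absence of IR1, DR1 and the HNF1 element, rare among all genes, therefore says little about the 9. The 30 bases around a match are printed below on the strand of the gene, with the E-box or the hexamer, in either orientation, in capitals and the position of the first base of the match counted from the RefSeq start.
Slc51a, chr16:32306864-32306893, first match at -184: agccacccccacCACGTGctaagcCACGTG
Slc51a, chr16:32306765-32306794, match at -85: cagagtactgacCACGTGaggactttgtcc
Slc51a, chr16:32306738-32306767, match at -58: tccttctcttctTGACCTatcagggaattt
Abcc4, chr14:118943819-118943848, match at -205: acgggtctcaagCACGTGcggcttccccgc
Slc51b, chr9:65330241-65330270, match at -203: gtttgtcactggAGGTCAtgcattcgtggg
Abcb11, chr2:69172999-69173028, match at -56: actttaggccatTGACCTataagcaaatag
All 6 windows lie on the minus strand of GRCm39. Much of this sequence lies in annotated exons, of any gene, in the GENCODE gene models. Of the 250 bases before the RefSeq start, 216 do so for Slc51a and all 250 for Abcb11, Slc51b and this start of Abcc4. Slc51a held the E-box at 3 places, whereas Slc51b and Abcb11 held the hexamer once each and no E-box. The 250 bases before the start of Slc10a1 are shown because it was the most abundant member per length in every group, with TATAAA, read on the opposite strand, in capitals. They belong to the farther upstream of its 2 RefSeq starts, and the AGGTCA counted for Slc10a1 lies in the window of the other start.
Slc10a1, chr12:81015480-81015729, minus strand: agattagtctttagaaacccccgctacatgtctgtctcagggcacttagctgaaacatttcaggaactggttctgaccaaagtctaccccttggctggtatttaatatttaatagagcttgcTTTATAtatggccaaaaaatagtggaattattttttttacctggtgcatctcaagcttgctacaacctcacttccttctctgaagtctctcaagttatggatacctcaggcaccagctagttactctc

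Against liver, 7 of the 9 tested transporters fell and 2 rose in each of the 3 tumor groups. All 4 uptake carriers, both canalicular exporters and the basolateral exporter Abcc3 fell, and the basolateral exporters Abcc4 and Slc51b rose. Over all tested genes, 70.3% were called in Aldafermin + MYC tumors against liver (38.4% higher, 31.9% lower), 69.7% in FGF19 + MYC tumors (36.9% higher, 32.9% lower) and 69.9% in sgTrp53 + MYC tumors (36.9% higher, 33% lower), so that being called was the common outcome in these comparisons. The median change of the 9 was -3.88, -3.79 and -3.21, beside medians of 0.13, 0.06 and 0.07 over all tested genes. Levels of the 9 in tumors did not overlap those in livers, except for Slc51b in FGF19 + MYC tumors. The share of all tested genes without overlap was 31.3% on the higher and 27.5% on the lower side in Aldafermin + MYC tumors, 32.4% and 30.1% in FGF19 + MYC tumors, and 28.8% and 27.4% in sgTrp53 + MYC tumors. The 3 comparisons share the 5 livers. In bulk tissue, fewer cells of a type and less RNA per cell cannot be told apart.

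**Figure D1:**
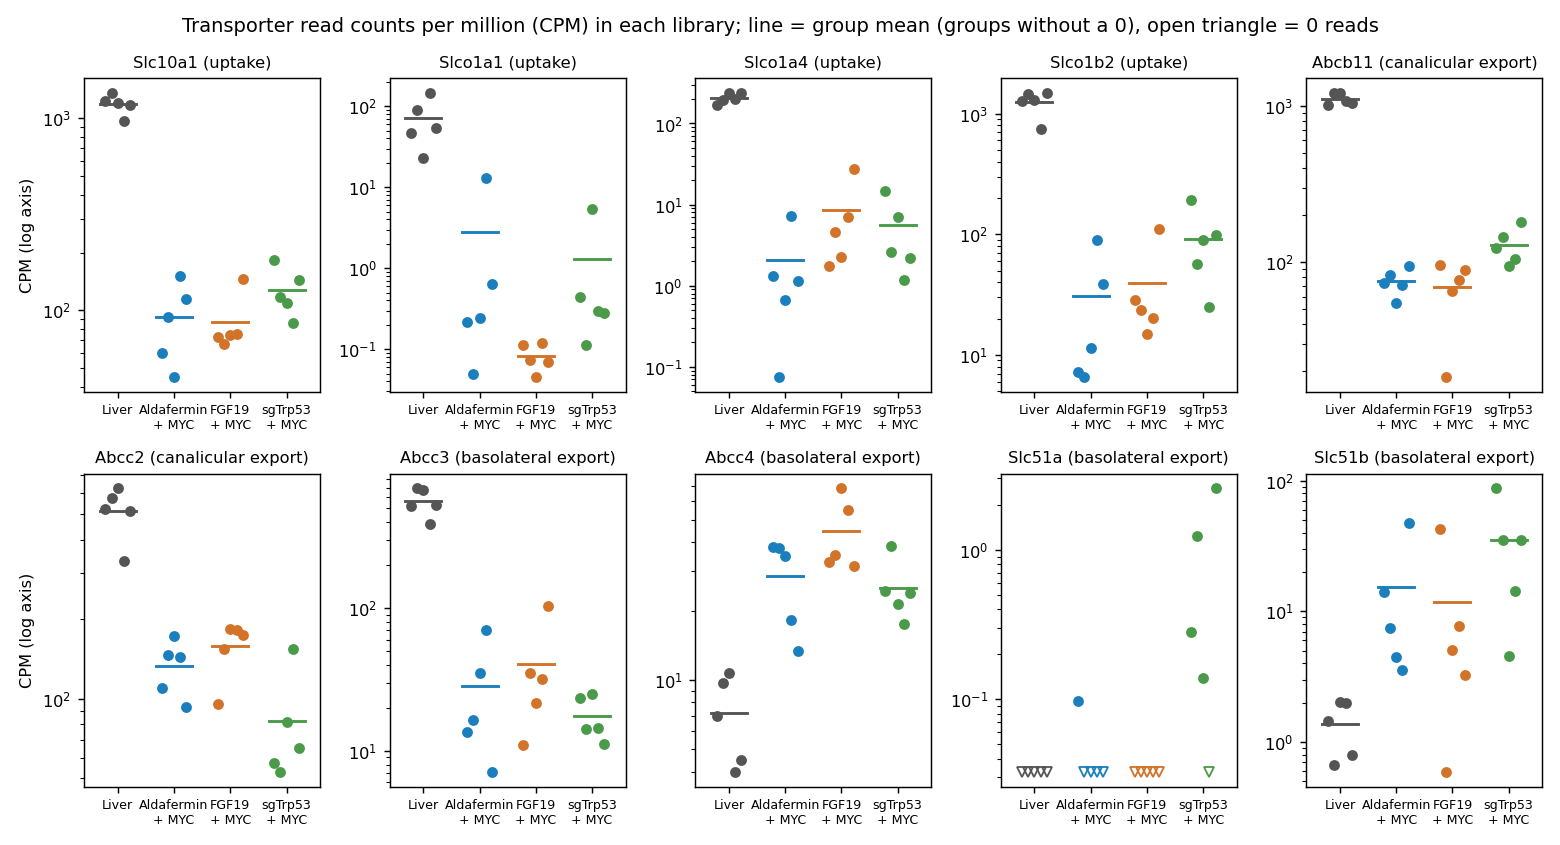
CPM (log axis) of the 10 transporters in each of the 20 libraries, with a line at the group mean (n = 5) for groups without a 0 and open triangles for libraries with 0 reads. The liver points of Slc10a1, with a mean of 1187 CPM, stand above all tumor points, those of Abcc4, with a mean of 7.17 CPM, below them, and Slc51a has reads in 1 Aldafermin + MYC and 4 sgTrp53 + MYC libraries.

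Among uptake carriers, Slc10a1, the sodium-dependent bile acid cotransporter NTCP (chr12:80996372-81015479, 4 exons), stood at 1229.6, 1359, 1206, 967 and 1174 CPM in the 5 livers. Its level was 59.9, 92.7, 44.9, 151 and 114 CPM in Aldafermin + MYC tumors, 72.7, 66.6, 74.1, 75.6 and 145 in FGF19 + MYC tumors, and 184, 117, 109.5, 86.5 and 144 in sgTrp53 + MYC tumors. No tumor came near a liver, while the 3 tumor groups overlapped. The mean of 1187 CPM ± 141 (SD, n = 5) in liver was 12.8-fold higher than in Aldafermin + MYC tumors (log2 fold change -3.68 ± 0.32 SE, adjusted p = 5.83e-09), 13.7-fold higher than in FGF19 + MYC tumors (-3.77 ± 0.32, adjusted p = 4.29e-09) and 9.27-fold higher than in sgTrp53 + MYC tumors (-3.21 ± 0.31, adjusted p = 2.81e-08). The 3 tested genes whose log2 CPM profiles over the 20 libraries lay nearest, each centred on its own mean, were Pex11a, Shpk and Bbox1, at root mean square distances of 0.23, 0.29 and 0.31.

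Slco1b2, the sodium-independent carrier OATP1B2 (chr6:141575179-141633546, plus strand, 16 exons), was at 1259, 1447, 1306, 739.9 and 1489 CPM in livers. It was at 7.19, 6.52, 11.4, 89.2 and 38.7 CPM in Aldafermin + MYC tumors, at 28.2, 23.6, 14.9, 20.3 and 110.1 in FGF19 + MYC tumors, and at 192, 56.8, 88.8, 24.7 and 97.8 in sgTrp53 + MYC tumors. Every tumor lay below every liver, and tumors of each group were spread over a wider range on the log scale than for Slc10a1. It fell 40.8-fold in Aldafermin + MYC tumors (-5.35 ± 0.82 SE, adjusted p = 1.03e-05), 31.7-fold in FGF19 + MYC tumors (-4.98 ± 0.80, adjusted p = 1.93e-05) and 13.6-fold in sgTrp53 + MYC tumors (-3.76 ± 0.76, adjusted p = 0.000207). Without Aldafermin + MYC replicate 4, its highest tumor of that group, the change was -6.29, and without FGF19 + MYC replicate 5 it was -5.84. Nearest in profile were Baat, Ugt2a3 and Gstk1, at distances of 0.56, 0.60 and 0.60.

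The neighbouring genes Slco1a1 and Slco1a4 (chr6:141853007-141892690 and chr6:141751165-141802036, minus strand), which encode the broad organic anion carriers OATP1A1 and OATP1A4, fell as well. Slco1a1 was at 47.3, 89.6, 22.7, 147 and 54.3 CPM in livers and at 0.112, 0.0728, 0.0449, 0.117 and 0.0703 in FGF19 + MYC tumors, where each library held only 1 to 4 reads. In Aldafermin + MYC tumors it was at 0.219, 0.0496, 0.240, 13.0 and 0.645 CPM, and in sgTrp53 + MYC tumors at 0.445, 0.112, 5.36, 0.300 and 0.276. The livers stood apart from all tumors, and in each of these last groups a single tumor stood far above the other 4. The change was -4.71 ± 1.23 SE in Aldafermin + MYC tumors (adjusted p = 0.00211), or -7.98 without replicate 4, and -5.77 ± 1.28 in sgTrp53 + MYC tumors (adjusted p = 0.000529), or -7.99 without replicate 3. In FGF19 + MYC tumors it was -9.69, with a 95% interval of -13.20 to -6.18 (adjusted p = 4.34e-05).

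Slco1a4 was at 168, 193, 235, 203 and 239.7 CPM in livers and at 1.31, 0.0744, 0.667, 7.19 and 1.15 in Aldafermin + MYC tumors. FGF19 + MYC tumors held 1.73, 4.55, 2.24, 7.10 and 27.4 CPM, and sgTrp53 + MYC tumors 14.8, 2.60, 7.09, 1.18 and 2.18. The highest tumor, FGF19 + MYC replicate 5, was still below the lowest liver. The change of Slco1a4 was -6.69 ± 1.05 SE in Aldafermin + MYC tumors (adjusted p = 1.35e-05), -4.59 ± 0.94 in FGF19 + MYC tumors (adjusted p = 0.000254) and -5.23 ± 0.97 in sgTrp53 + MYC tumors (adjusted p = 8.61e-05). The changes were -8.02 without Aldafermin + MYC replicate 4, -5.71 without FGF19 + MYC replicate 5 and -5.99 without sgTrp53 + MYC replicate 1. Of short stretches of exon sequence, 1.07% of those of Slco1a1 and 0.721% of those of Slco1a4 also occurred in other Slco1a genes. Over the 4 uptake carriers the median change was -5.03, -4.78 and -4.49 in Aldafermin + MYC, FGF19 + MYC and sgTrp53 + MYC tumors.

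Abcb11, the bile salt export pump BSEP (chr2:69068544-69173315, minus strand, 28 exons), was the most even of the members in liver, at 1013, 1215, 1210.0, 1069 and 1037 CPM. Aldafermin + MYC tumors held 73.8, 82.9, 54.6, 71.1 and 94.2 CPM, FGF19 + MYC tumors 96.2, 18.3, 64.9, 76.4 and 89.1, and sgTrp53 + MYC tumors 122, 145, 94.0, 105 and 181. All tumors lay below 181.1 CPM and all livers above 1012.9 CPM. It fell 14.7-fold in Aldafermin + MYC tumors (-3.88 ± 0.33 SE, adjusted p = 4.42e-09), 16.1-fold in FGF19 + MYC tumors (-4.01 ± 0.33, adjusted p = 3.01e-09) and 8.58-fold in sgTrp53 + MYC tumors (-3.10 ± 0.32, adjusted p = 6.04e-08). The lowest level was in FGF19 + MYC replicate 2. Slc17a2, Ttpa and Cxcl12 lay nearest in profile, at distances of 0.51, 0.53 and 0.54.

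Abcc2, the conjugate export pump MRP2 (chr19:43770631-43829179, plus strand, 32 exons), fell least of the 7, and was at 520.4, 575, 628, 331 and 512 CPM in livers. It was at 109.6, 147, 173, 144 and 93.5 CPM in Aldafermin + MYC tumors, at 96.0, 154, 184, 183 and 175 in FGF19 + MYC tumors, and at 57.4, 52.7, 81.8, 154 and 65.3 in sgTrp53 + MYC tumors. Here the sgTrp53 + MYC tumors were mostly the lowest, with replicate 4 among the levels of the other tumors. The fall was 3.85-fold in Aldafermin + MYC tumors (-1.94 ± 0.28 SE, adjusted p = 5.26e-06), 3.24-fold in FGF19 + MYC tumors (-1.70 ± 0.28, adjusted p = 2.45e-05) and 6.24-fold in sgTrp53 + MYC tumors (-2.64 ± 0.29, adjusted p = 1.3e-07). Abca3, H6pd and Psd3 lay nearest in profile, at distances of 0.25, 0.27 and 0.28.

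The basolateral exporters did not move together. Abcc3, the conjugate exporter MRP3 (chr11:94233874-94283823, minus strand, 31 exons), stood at 522, 697, 671, 387 and 529.9 CPM in livers. It was at 13.7, 16.4, 35.0, 70.3 and 7.04 CPM in Aldafermin + MYC tumors, 11.0, 34.9, 21.5, 31.8 and 104 in FGF19 + MYC tumors and 23.4, 14.2, 25.0, 14.5 and 11.2 in sgTrp53 + MYC tumors. The livers were again apart from all tumors, and the highest tumors were the same libraries as for Slco1b2 in the first 2 groups. The changes were -4.30 ± 0.62 SE (19.7-fold lower, adjusted p = 4.58e-06), -3.79 ± 0.60 (13.8-fold, adjusted p = 1.58e-05) and -4.99 ± 0.64 (31.8-fold, adjusted p = 9.96e-07). Leaving out Aldafermin + MYC replicate 4 gave -4.96 and leaving out FGF19 + MYC replicate 5 gave -4.50. Hyal1, Mapre3 and Ecm1 lay nearest in profile, at distances of 0.42, 0.44 and 0.46.

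Abcc4, the exporter MRP4 that also carries cyclic nucleotides (chr14:118720103-118943924, minus strand, 31 exons), was low in livers, at 6.96, 9.71, 10.7, 3.96 and 4.50 CPM. It was at 38.0, 37.5, 34.7, 18.3 and 13.4 CPM in Aldafermin + MYC tumors, at 32.7, 35.1, 68.8, 54.8 and 31.5 in FGF19 + MYC tumors and at 24.3, 38.5, 21.6, 17.5 and 23.9 in sgTrp53 + MYC tumors. The lowest tumor was above the highest liver. Abcc4 rose 3.94-fold in Aldafermin + MYC tumors (1.98 ± 0.35 SE, adjusted p = 4.9e-05), 6.19-fold in FGF19 + MYC tumors (2.63 ± 0.36, adjusted p = 2.21e-06) and 3.49-fold in sgTrp53 + MYC tumors (1.80 ± 0.35, adjusted p = 0.000121). Gemin4, Fubp1 and Mdn1 lay nearest in profile, at distances of 0.47, 0.47 and 0.48.

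Abcc3 and Abcc4 thus moved in opposite directions. Per length of exon sequence, Abcc3 was 90.5 to 170.2 times as high as Abcc4 in the 5 livers. In Aldafermin + MYC tumors this ratio was 0.519, 0.635, 1.46, 5.57 and 0.763, in FGF19 + MYC tumors 0.486, 1.44, 0.452, 0.837 and 4.77, and in sgTrp53 + MYC tumors 1.39, 0.532, 1.68, 1.19 and 0.678. No tumor ratio came within the range of the livers.

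Slc51b, the beta subunit of the organic solute transporter (chr9:65319995-65330597, minus strand, 4 exons), was at 1.43, 0.660, 2.03, 1.98 and 0.797 CPM in livers. Levels in tumors were the most uneven of the members that rose: 14.0, 7.42, 4.43, 3.54 and 47.5 CPM with Aldafermin, 42.7, 0.583, 5.07, 7.69 and 3.23 with FGF19, and 88.3, 35.2, 4.53, 14.3 and 35.0 with sgTrp53. The Aldafermin + MYC and sgTrp53 + MYC tumors were all above the livers, whereas FGF19 + MYC replicate 2 was below the lowest liver. Slc51b rose 11.3-fold in Aldafermin + MYC tumors (3.50 ± 1.01 SE, adjusted p = 0.00472), 8.65-fold in FGF19 + MYC tumors (3.11 ± 1.00, adjusted p = 0.00976) and 26.1-fold in sgTrp53 + MYC tumors (4.70 ± 1.06, adjusted p = 0.000601). Without FGF19 + MYC replicate 1 its change was 1.61 and no longer passed the test (adjusted p = 0.104). It was 2.52 without Aldafermin + MYC replicate 5 and 4.03 without sgTrp53 + MYC replicate 1. Nearest in profile were Dnah1, Ppil6 and Pnck, at distances of 0.97, 1.07 and 1.12, so that no gene tested tracked it closely.

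Of the 1070 exon bases of Slc51b, 380 lie inside Rasl12, a gene on the opposite strand that encodes a Ras-like small GTPase. Whether the counting used strand was not given in the sources used here. If it did not, reads from the overlap cannot be told apart and may be among the reads ambiguous between genes, which were left out. Rasl12 was at 0.0717 to 0.183 CPM in livers, and at 4.88, 13.2, 4.72, 8.77 and 8.50 in Aldafermin + MYC tumors, 3.07, 3.50, 4.35, 4.02 and 4.92 in FGF19 + MYC tumors and 11.1, 7.57, 5.88, 2.38 and 18.7 in sgTrp53 + MYC tumors. It rose in all 3 groups, by 6.09, 5.08 and 6.28 on the log2 scale. Rasl12 was even among FGF19 + MYC tumors where Slc51b ran from 0.583 to 42.7 CPM. Its part in the counts of Slc51b was not tested. Other members also overlap genes on the opposite strand, and the same limit holds for them. Of the exon bases of Slc10a1, 268 lie inside Srsf5, at 77.9 to 311 CPM in tumors. Overlaps with long noncoding genes were 1068 bases for Abcb11 (Gm13613), 1889 for Abcc3 (Gm51871), 340 for Slco1b2 (Gm67350) and 253 for Abcc4 (Gm62320). The part of these genes was not tested either.

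Slc51a, the alpha subunit that Slc51b needs for transport (chr16:32293322-32306842, minus strand, 9 exons), had 0 reads in all 5 livers and all 5 FGF19 + MYC tumors. A single Aldafermin + MYC tumor held 4 reads (0.0972 CPM). The sgTrp53 + MYC tumors held 17, 89, 12, 0 and 169 reads, or 0.280, 1.25, 0.138, 0 and 2.59 CPM. Reads of Slc51a were thus almost all in 4 of the 5 sgTrp53 + MYC tumors. The libraries of that group were also the most deeply sequenced, were deposited in a table of their own and had the most ambiguous reads. Pooled over the 5, the level was 0.803 CPM (exact Poisson 95% interval 0.713 to 0.901, counting error only), at least 27.7-fold higher than the level that 3 reads over all 5 livers would give and at least 34.8-fold higher than that for FGF19 + MYC tumors. Without replicate 5 the pooled level was 0.404 CPM and at least 13.9-fold higher than liver. In a fit without a filter on low counts, over 29921 genes, Slc51a passed the test in sgTrp53 + MYC tumors against liver (adjusted p = 0.00366) and against the mean of the other tumors (adjusted p = 0.00314), and not in Aldafermin + MYC tumors against liver (adjusted p = 0.377). Of its 3661 exon bases, 921 lie inside Pcyt1a on the opposite strand, a gene at 47.9 to 144.7 CPM in tumors. What was said of strand for Slc51b holds here too, and the part of Pcyt1a in the counts of Slc51a was not tested.

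**Figure D2:**
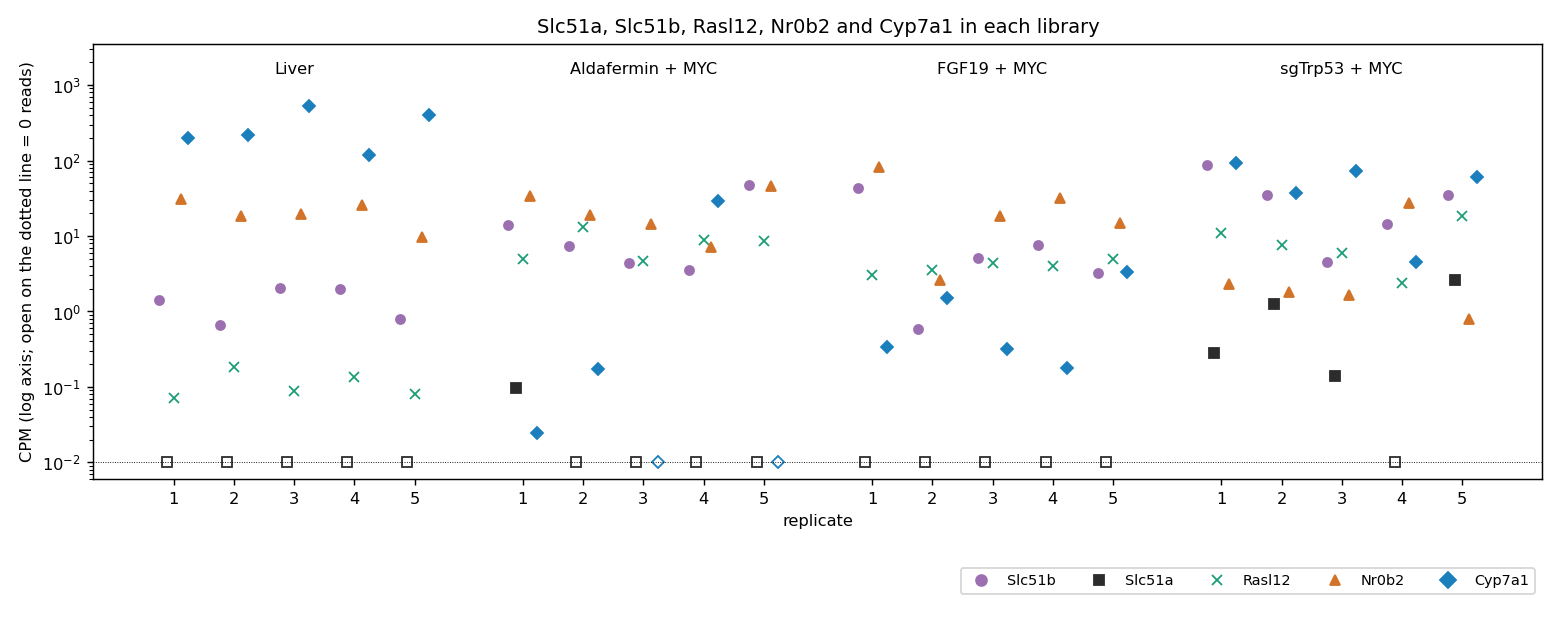
CPM (log axis) of Slc51b, Slc51a, its overlapping neighbour Rasl12, and the bile acid genes Nr0b2 and Cyp7a1 in each library, by group and replicate, with open symbols on the dotted line for 0 reads. Slc51b was highest in sgTrp53 + MYC replicate 1 (88.3 CPM), Slc51a in replicate 5 (2.59 CPM), and Rasl12 stayed at or below 0.183 CPM in livers.

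**Figure D3:**
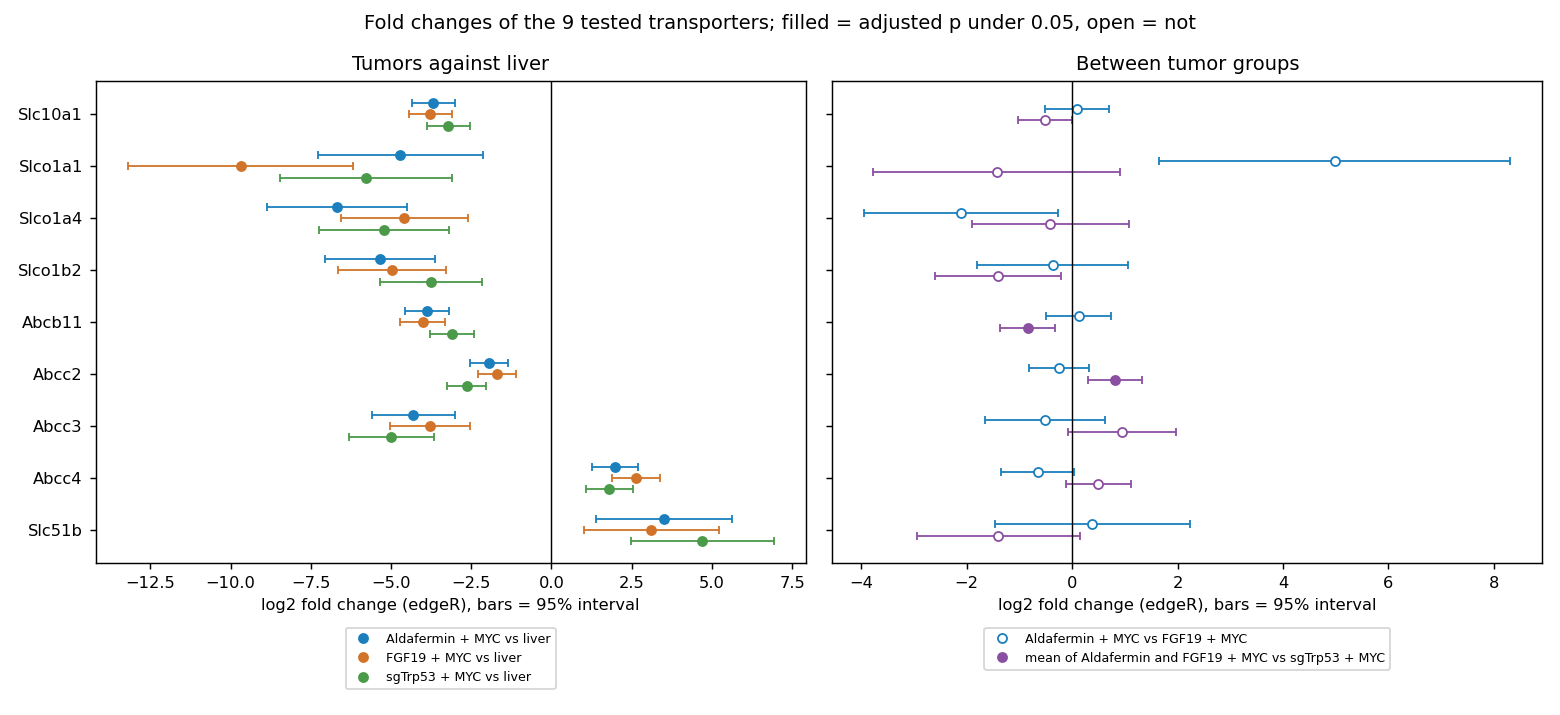
Log2 fold changes of the 9 tested transporters with 95% intervals, tumors against liver on the left and between tumor groups on the right, filled where the adjusted p was under 0.05. The changes against liver run from -9.69 (Slco1a1, FGF19 + MYC) to 4.70 (Slc51b, sgTrp53 + MYC), and on the right Abcb11 (-0.84) and Abcc2 (0.82) are filled.

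Aldafermin and FGF19 were compared directly, since they differ by designed changes at the amino terminus. None of the 9 transporters was called between Aldafermin + MYC and FGF19 + MYC tumors by the quasi-likelihood test, where 0% of all tested genes were. At an unadjusted p under 0.05 there were 2, Slco1a1 and Slco1a4, beside 1048 of all tested genes. For Slco1a1 the difference, Aldafermin minus FGF19, was 4.98 (95% interval 1.65 to 8.31, adjusted p = 0.38). It passed the threshold with edgeR's likelihood ratio test (5.03, adjusted p = 0.0269) and with DESeq2 (5.07, adjusted p = 0.0134), which called 59 and 96 genes in all, and it was 1.72 without Aldafermin + MYC replicate 4 (adjusted p = 0.79). For Slco1a4 it was -2.10 (95% interval -3.94 to -0.26, adjusted p = 0.584), the opposite sign. The difference of Slco1a4 was -3.43 without Aldafermin + MYC replicate 4 (adjusted p = 0.116) and -0.97 without FGF19 + MYC replicate 5 (adjusted p = 0.906).

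For the other 7 the intervals show how large a difference these tumors could hide. They were narrow for the canalicular exporters and Slc10a1: 0.13 (-0.49 to 0.75) for Abcb11, -0.25 (-0.82 to 0.32) for Abcc2 and 0.09 (-0.51 to 0.70) for Slc10a1. Abcc4 differed by -0.65 (-1.35 to 0.04), with the higher mean in FGF19 + MYC tumors, 44.6 CPM ± 16.5 against 28.4 CPM ± 11.7 (SD, n = 5). The intervals were wide for Abcc3, at -0.51 (-1.64 to 0.62), for Slco1b2, at -0.37 (-1.80 to 1.06), and for Slc51b, at 0.39 (-1.47 to 2.24). The adjusted p of these 7 lay between 0.728 and 0.99, which does not show that the molecules act alike on these genes.

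Set against sgTrp53 + MYC tumors, the mean of the FGF-driven tumors was lower for Abcb11 and higher for Abcc2, and these were the 2 of 9 called, beside 23.7% of all tested genes (11.6% higher, 12.1% lower). Abcb11 was 1.79-fold lower (-0.84 ± 0.25 SE, adjusted p = 0.0199), with means of 75.3 CPM ± 14.7 and 69.0 CPM ± 30.8 against 129 CPM ± 34.7 (SD, n = 5). Abcc2 was 1.77-fold higher (0.82 ± 0.24 SE, adjusted p = 0.0203), with means of 133 CPM ± 31.7 and 158 CPM ± 36.9 against 82.3 CPM ± 41.7. Levels overlapped for both genes, and no member was without overlap between any 2 tumor groups, where 5.61% of all tested genes were higher and 4.14% lower without overlap in Aldafermin + MYC than in sgTrp53 + MYC tumors, 5.45% and 5.45% in FGF19 + MYC tumors, 3.28% and 2.42% in all FGF-driven tumors, and 1.07% and 0.391% in Aldafermin + MYC than in FGF19 + MYC tumors. Neither call held without sgTrp53 + MYC replicate 5 (Abcb11 -0.69, adjusted p = 0.0772, Abcc2 0.75, adjusted p = 0.0606), and that of Abcc2 did not hold without replicate 2 (0.70, adjusted p = 0.0598). Per length, Abcc2 stood at 0.198 to 0.332 of Abcb11 in livers, 0.230 to 0.940 in sgTrp53 + MYC tumors, 0.634 to 2.02 in Aldafermin + MYC tumors and 0.638 to 5.40 in FGF19 + MYC tumors.

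The other 7 members did not pass the test between these tumors. The estimates for the 4 uptake carriers were below 0, with -0.51 ± 0.25 SE for Slc10a1 (adjusted p = 0.139), -1.41 ± 0.57 for Slco1b2 (adjusted p = 0.08), -1.43 ± 1.12 for Slco1a1 (adjusted p = 0.382) and -0.41 ± 0.71 for Slco1a4 (adjusted p = 0.718). Of the basolateral exporters, Abcc3 differed by 0.95 ± 0.49 (adjusted p = 0.17), Abcc4 by 0.50 ± 0.29 (adjusted p = 0.229) and Slc51b by -1.40 ± 0.74 (adjusted p = 0.181). Aldafermin + MYC replicate 4 and FGF19 + MYC replicate 5 held the highest summed adult hepatocyte markers of their groups. They also held the highest Slc10a1, Slco1a4, Slco1b2 and Abcc3, so leaving them out lowers these genes in FGF-driven tumors by the choice itself. In a comparison without them, chosen after the data were seen, 6 members were called beside 21.2% of the genes tested: Abcb11 and all 4 uptake carriers lower and Abcc2 higher. Slc10a1 was then at -0.77 (adjusted p = 0.0130), Slco1b2 at -2.30 (adjusted p = 0.00151), Slco1a1 at -3.03 (adjusted p = 0.0231) and Slco1a4 at -1.64 (adjusted p = 0.0387). Abcc3 was at 0.27 (adjusted p = 0.619) and Slc51b at -1.15 (adjusted p = 0.303) in the same comparison. Left out singly, Aldafermin + MYC replicate 4 and FGF19 + MYC replicate 5 gave 4 calls each, beside 22.7% and 21.3% of the genes tested. The estimate turned to 0.79 for Slco1a1 without sgTrp53 + MYC replicate 3 and to 0.35 for Slco1a4 without replicate 1. The summed hepatocyte markers were 7828 to 28130 CPM in FGF-driven tumors and 3324 to 11195 CPM in sgTrp53 + MYC tumors, and their part in these differences was not tested.

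Taken per kilobase of exon sequence so that genes can be roughly compared, the 10 transporters summed to 754 to 1075 CPM per kb in livers and to 55.7 to 204 in tumors. The lengths join all GENCODE exons of a gene, whereas reads were counted on RefSeq genes. The order of genes, the shares and the ratios per length given above depend on these lengths. Slc10a1 led in every group, with a mean of 356 CPM per kb in livers, 27.8 in Aldafermin + MYC, 26.0 in FGF19 + MYC and 38.4 in sgTrp53 + MYC tumors. In livers it was followed by Abcb11 (199), Slco1b2 (194), Abcc3 (94.1) and Abcc2 (59.0), with Slc51b at 1.29 and Abcc4 at 0.831. In tumors the next places went to Abcc2 (15.3), Slc51b (14.4) and Abcb11 (13.5) with Aldafermin, to Abcc2 (18.2), Abcb11 (12.4) and Slc51b (11.1) with FGF19, and to Slc51b (33.1), Abcb11 (23.2) and Slco1b2 (14.3) with sgTrp53. Within each gene that fell, liver was first without overlap, and neighbouring tumor groups overlapped.

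Uptake carriers made up 59.5% to 65.0% of this sum in livers and 26.0% to 57.3% in tumors (median 38.0%). Canalicular exporters made up 25.6% to 30.5% in livers and 14.0% to 50.3% in tumors, which spread to both sides of the livers. Basolateral exporters made up 8.91% to 11.5% in livers and 12.8% to 45.4% in tumors (median 23.5%). Uptake shares were thus lower and basolateral shares higher in all 15 tumors than in any liver. The sum itself fell, so a higher share need not be a higher level. Abcc3 averaged 94.1 CPM per kb in livers, 4.77 with Aldafermin, 6.79 with FGF19 and 2.95 with sgTrp53. Abcc4 and Slc51b rose. Slc51b alone went from 0.0574% to 0.245% of the sum in livers to 0.978% to 40.3% in tumors.

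**Figure D4:**
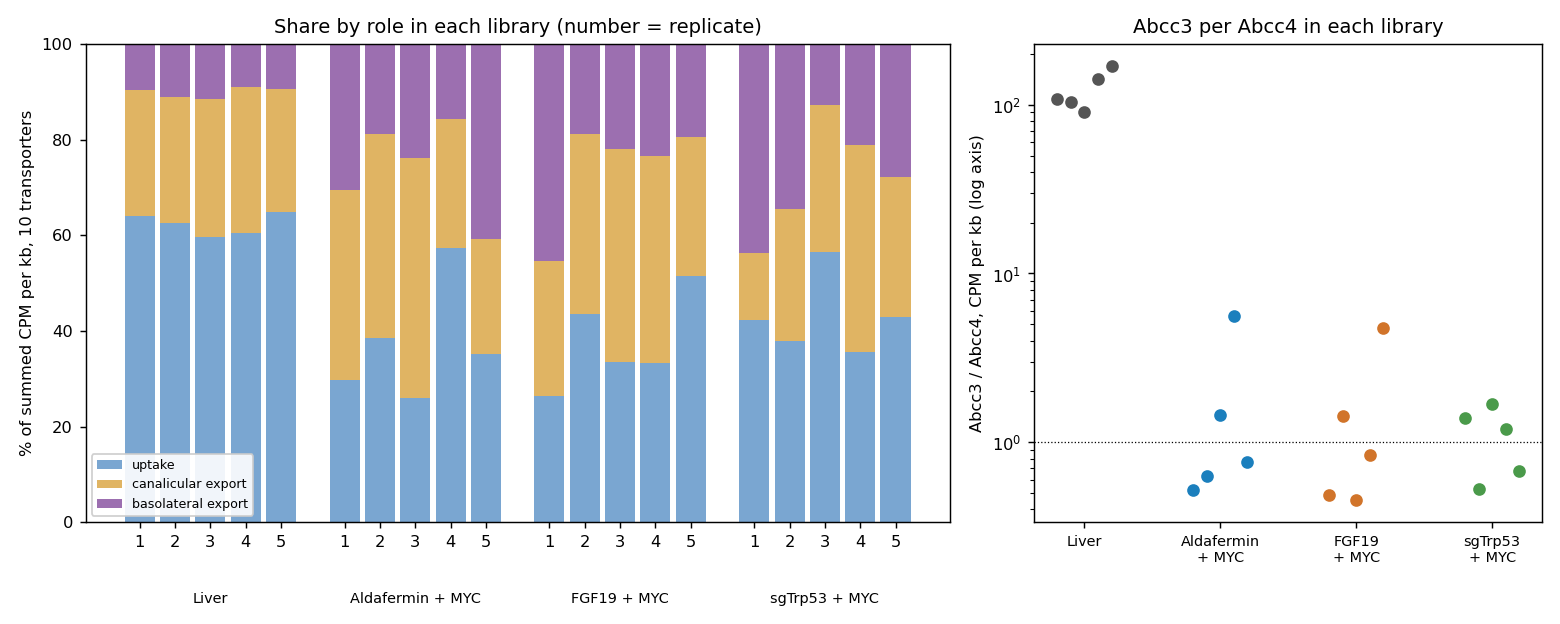
Left, the percentage of the summed CPM per kb of the 10 transporters that came from uptake, canalicular and basolateral carriers in each library, by group and replicate; right, the ratio of Abcc3 to Abcc4 in CPM per kb (log axis), with a dotted line at equal levels. Uptake is 59.5% to 65.0% in livers and at most 57.3% in a tumor, and Abcc3 per Abcc4 is 90.5 to 170.2 in livers and at most 5.57 in a tumor.

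The genes that make bile acids fell with their carriers. Of 18 genes of bile acid synthesis and conjugation, 17 fell against liver with Aldafermin, 17 with FGF19 and 16 with sgTrp53, and none rose. Over all tested genes, 31.9%, 32.9% and 33% fell in these comparisons. Cyp7a1, the rate-limiting enzyme of bile acid synthesis, was at 199, 218, 534, 117 and 397 CPM in livers, at 0.0243, 0.174, 0, 28.8 and 0 with Aldafermin, at 0.335, 1.53, 0.314, 0.176 and 3.30 with FGF19, and at 92.6, 37.2, 72.8, 4.53 and 61.3 with sgTrp53. It was lower in FGF-driven than in sgTrp53 + MYC tumors (-4.39 ± 1.09 SE, adjusted p = 0.00715), and for sgTrp53 + MYC tumors against liver the estimate of -2.45 did not pass the test (adjusted p = 0.0981). Abcb11 moved the same way as Cyp7a1 between tumor groups and Abcc2 the other way. Cyp8b1 (-2.16), which sets the share of cholic acid, and Baat (-1.80), which conjugates bile acids with taurine or glycine, were also lower in FGF-driven tumors, and Hsd3b7 was higher (1.19). Against liver, Cyp46a1, which starts an alternative route from cholesterol, changed by -6.86, -6.25 and -5.60 in the Aldafermin, FGF19 and sgTrp53 groups.

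Among 17 tested receptors and transcription factors that act on these genes, 13, 11 and 12 fell against liver in Aldafermin + MYC, FGF19 + MYC and sgTrp53 + MYC tumors and none rose. The shares of all tested genes that fell were 31.9%, 32.9% and 33%. Nr1h4, the bile acid receptor FXR that drives Abcb11 and Slc51b, was at 143, 182, 191, 131 and 172 CPM in livers. In tumors it was at 28.6, 33.4, 18.4, 46.0 and 33.3 CPM with Aldafermin, 40.1, 27.8, 32.8, 31.8 and 39.1 with FGF19, and 71.8, 55.8, 67.8, 47.5 and 66.6 with sgTrp53. Its lowest sgTrp53 + MYC tumor was above all other tumors, and the difference was -0.90 (adjusted p = 0.000616). Nr0b2, the corepressor SHP that FXR induces, was not called in any comparison, and was at 2.31, 1.79, 1.64, 27.0 and 0.783 CPM in sgTrp53 + MYC tumors against 9.84 to 30.7 in livers. Replicate 4 of that group, with the highest Nr0b2, had the lowest Cyp7a1, no read of Slc51a and the highest Abcc2. It also had the lowest Nr1h4 (47.5 CPM), Slc10a1, Slco1a4, Slco1b2 and Abcc4 of the group. These are values of a single library, and no link between them was tested. Nr1i3, the xenobiotic receptor CAR, fell in all 3 tumor groups (-5.25, -4.43 and -3.80), as did the lipid-sensing receptor Ppara (-3.33, -3.20 and -2.66) and the aryl hydrocarbon receptor Ahr (-3.25, -2.66 and -2.84).

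Of 23 other tested hepatic transporters, 7 rose and 12 fell in Aldafermin + MYC tumors, 6 rose and 13 fell in FGF19 + MYC tumors, and 7 rose and 14 fell in sgTrp53 + MYC tumors against liver. Over all tested genes, 38.4%, 36.9% and 36.9% rose and 31.9%, 32.9% and 33% fell. Abcb1b, a multidrug exporter of the P-glycoprotein type, rose by 5.91, 6.16 and 6.07, from 0.205 to 1.25 CPM in livers to 32.5 to 60.8 in tumors. The organic anion carriers Slc22a30 (-6.52, -5.88 and -6.27) and Slc22a7 (-5.61, -6.73 and -5.44) fell in all 3 tumor groups, as did Slco2b1 (-4.72, -5.08 and -5.92). Between tumor groups 5 were higher and 1 lower in FGF-driven tumors, where 23.7% of all tested genes were called. The called transporters included Abcc5 (1.12) and Abcg2 (0.73), higher, and Slc10a5 (-1.70), lower. Of 15 genes for membrane anchoring and trafficking of such carriers, 3 rose in each tumor group and 4, 7 and 5 fell. Ezr, which links membrane proteins to actin, rose by 3.64, 3.56 and 3.29, the scaffold Pdzk1 fell (-3.39, -2.96 and -1.47), and so did the apical trafficking motor Myo5b (-1.32, -2.32 and -2.37). Between tumor groups, Pdzk1 (-1.71) and Rab11fip2 (-1.01) were lower and Slc9a3r1 (0.85) higher in FGF-driven tumors. In all, 2 genes were called in each direction, beside the same 23.7% of all tested genes. Of 5 tested genes of FGF15/19 signalling, none rose against liver and 1, 1 and 2 fell. Etv5 (1.40) and Fgfr4 (0.44) were higher in FGF-driven than in sgTrp53 + MYC tumors, where 11.6% of all tested genes were higher.

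The labelled tissue was checked with markers of its cells. The 8 adult hepatocyte markers, which include Alb and Cps1, all fell in each tumor group, as did the 10 pericentral and the 10 periportal genes. Over all tested genes, 31.9% to 33% fell. The 8 markers summed to 183375 to 229190 CPM in livers and 3324 to 28130 CPM in tumors. None of the 8 was at 0 in any tumor, the lowest single level being 0.347 CPM for Cyp2e1. Uptake and canalicular carriers moved with these markers against liver, and the part of the markers in that result was not tested. Aldafermin + MYC replicate 4 summed to 21586 CPM and FGF19 + MYC replicate 5 to 28130 CPM, above the 14818 CPM of the next tumor, and these libraries also held the highest Slco1a4, Slco1b2 and Abcc3 of their groups. The sgTrp53 + MYC tumors had the lowest median marker sum (5963 CPM) and the highest mean Slco1b2 among tumor groups (92.0 CPM ± 62.7 against 30.6 CPM ± 35.3 and 39.4 CPM ± 39.8, SD, n = 5).

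Bile ducts also express Slc51a and Slc51b. Of 6 tested cholangiocyte markers, 0 rose and 2 fell in Aldafermin + MYC tumors against liver, 0 rose and 1 fell in FGF19 + MYC tumors, and 1 rose and 1 fell in sgTrp53 + MYC tumors. In FGF-driven tumors 4 of them were lower than in sgTrp53 + MYC tumors, where 12.1% of all tested genes were lower. All 8 listed markers summed to 71.7 to 162 CPM in livers, 23.3 to 85.3 with Aldafermin, 18.1 to 105.9 with FGF19 and 47.1, 795, 49.9, 25.2 and 23.8 with sgTrp53. The duct keratin Krt19 was at 191 CPM in sgTrp53 + MYC replicate 2, at 0.0953 to 2.33 in the other 4, and at 0.956 to 2.87 in livers. The highest Slc51a, in replicate 5, and the highest Slc51b, in replicate 1, came with marker sums below those of all livers. Replicate 2, with the highest marker sum, held 1.25 CPM of Slc51a, below replicate 5 alone. Its Slc51b of 35.2 CPM was below replicate 1 alone. Without replicate 2, Slc51a pooled to 0.692 CPM, at least 23.9-fold higher than liver. The part of bile duct cells in the levels of both genes was not tested.

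**Figure D5:**
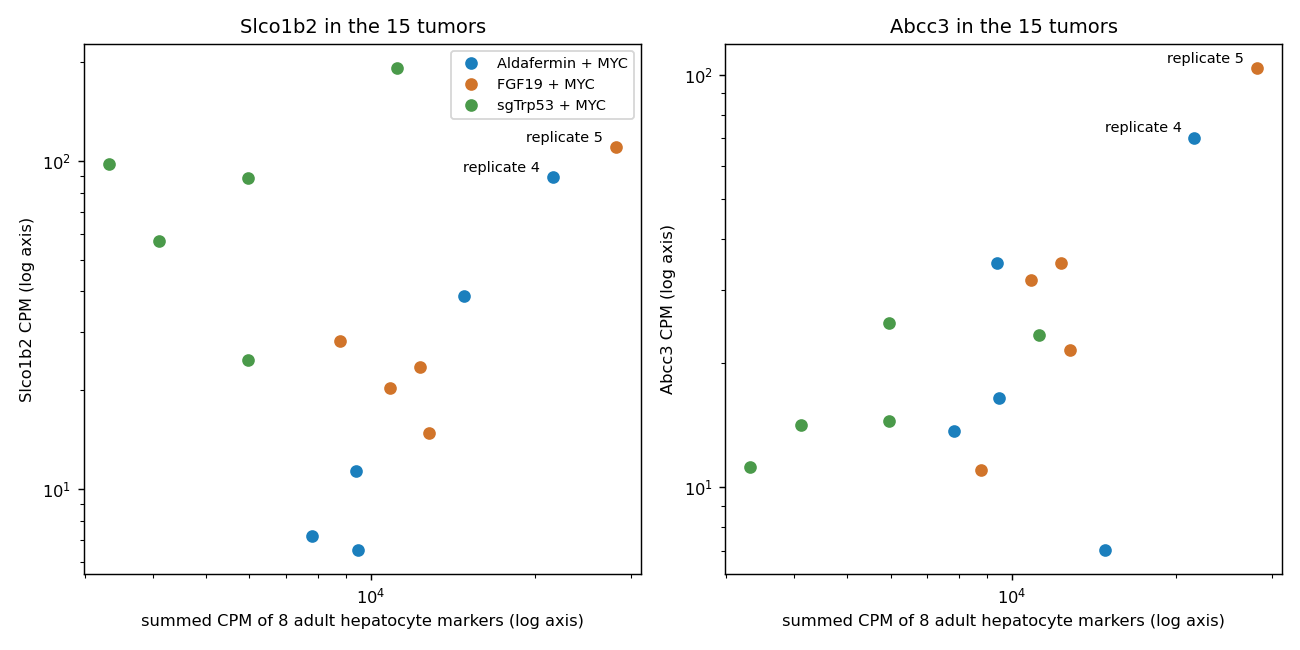
Slco1b2 (left) and Abcc3 (right) in CPM against the summed CPM of 8 adult hepatocyte markers in the 15 tumors, both axes log, each point a library. Aldafermin + MYC replicate 4 and FGF19 + MYC replicate 5, marked, lie farthest right at 21586 and 28130 CPM, and sgTrp53 + MYC tumors, at 3324 to 11195 CPM of markers, hold Slco1b2 levels of 24.7 to 192 CPM.

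Other cell types moved less uniformly. Of 6 endothelial markers, 4, 3 and 4 fell and none rose, and of 6 macrophage and Kupffer cell markers, 1 rose in each tumor group and 4, 3 and 5 fell. Over all tested genes, 31.9%, 32.9% and 33% fell. In FGF-driven tumors 4 of the macrophage and Kupffer cell markers were higher than in sgTrp53 + MYC tumors, where 11.6% of all tested genes were higher. Of 6 stellate cell and fibroblast markers, 3 rose and 2 fell in each group, with sums of up to 1706 CPM in Aldafermin + MYC tumors against 248 to 382 in livers. Neither of 2 tested lymphocyte markers was called, and of 4 tested erythroid markers 1, 3 and 3 fell. None of the genes on the lists above was called between Aldafermin + MYC and FGF19 + MYC tumors, where 0% of all tested genes were.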

How the data were processed

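The authors prepared stranded mRNA libraries (TruSeq), aligned paired 150-base reads to mouse mm39 with HISAT2 and counted them on RefSeq genes with htseq-count. The submitters' processing notes also name bcl2fastq 2.20.0.422, and the versions of HISAT2 and htseq-count and the strand setting of the counting are not given in the sources used here. The deposited values are raw counts per gene symbol for 20 libraries in 2 tables, the 5 sgTrp53_MYC libraries in their own. The 5 summary lines, 33.7% to 56.2% of each library, were removed before library sizes were taken. Replicate numbers come from the titles.

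Tests were run with edgeR 4.0.16 (limma 3.58.1, R 4.3.3) on the 14333 genes that reached 1 CPM in 5 or more libraries, with TMM normalisation, 1 quasi-likelihood model of the 4 groups and Benjamini-Hochberg adjustment over all tested genes with a threshold of 0.05. Log2 CPM for profile distances used a prior count of 2. The procedure was tested on simulated data. Counts give the precision of sampling reads only. The p-values set a difference between groups against the spread among libraries within the groups. A bound of at least a given fold uses 3 reads over the group as the floor. No library was a copy of another within its group (chi-square over its degrees of freedom at least 15.0).

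Alternatives were DESeq2 1.42.0, edgeR's likelihood ratio test, RLE, upper quartile or no composition factors, filterByExpr or no filter, only the compared groups, a replicate block and each library left out. The members and gene lists were chosen with earlier results of these data known. All 10 members are named, Cyp7a1, Nr1h4, Nr0b2 and Nr1i3 always, and from every other list at most 3 genes per comparison with the largest called change, then with their values in all 3 comparisons with liver. Rasl12, Pcyt1a, Srsf5, the overlapping noncoding genes, Hsd3b7, Krt19, Alb, Cps1, Cyp2e1 and Trp53 are named outside that rule. Of these, Rasl12, Hsd3b7 and Krt19 were named after their values were seen. Gene models come from GENCODE M39 on GRCm39, lengths per kb from the same exons, and promoter sequences from RefSeq. These lengths can differ from those of the RefSeq genes on which reads were counted.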

Additional observations from a re-analysis of the deposited data

Results flagged for a closer look

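In each tumor or liver group of 5, the highest or lowest library was set against the others by Dixon's criterion. Of 38 groups of values tested over the 10 transporters, 11 held a library standing far from the other 4. Chance alone gives about 5%, or about 1 in 20, of independent groups of normally distributed values, which CPM need not be. These groups are not independent either, since the same libraries recur and FGF19 + MYC replicate 5 gives 4 of the 11. All 11 stood above the rest of their group, so the 5% is no firm reference here. In FGF19 + MYC tumors, replicate 5 stood above the rest for Slc10a1 (145 CPM), Slco1a4 (27.4 CPM), Slco1b2 (110.1 CPM) and Abcc3 (104 CPM), and replicate 1 for Slc51b (42.7 CPM). In Aldafermin + MYC tumors, replicate 4 stood above the rest for Slco1a1 (13.0 CPM) and Slco1a4 (7.19 CPM), replicate 5 for Slc51b (47.5 CPM) and replicate 1 for Slc51a (0.0972 CPM, with 0 reads in the other 4, so that any read would have met the criterion). In sgTrp53 + MYC tumors, replicate 3 stood above the rest for Slco1a1 (5.36 CPM) and replicate 4 for Abcc2 (154 CPM). No liver stood apart. The change against liver differed between tumor groups for Abcb11, with a difference of -0.84, and for Abcc2, with a difference of 0.82, between the mean of Aldafermin + MYC and FGF19 + MYC tumors and sgTrp53 + MYC tumors. In that comparison 23.7% of all tested genes were called, and neither difference passed the test without sgTrp53 + MYC replicate 5 (adjusted p = 0.0772 for Abcb11 and 0.0606 for Abcc2).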

How the results depend on the processing

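Against liver, the 9 calls were kept under every alternative run except without FGF19 + MYC replicate 1, where 8 were left. The leave-one-out counts ran from 9 to 9 in Aldafermin + MYC, 8 to 9 in FGF19 + MYC and 9 to 9 in sgTrp53 + MYC tumors. With library size alone, the median change of all genes rose to 0.97, 0.91 and 0.95 and the share of calls that were higher from 54.6%, 52.9% and 52.8% to 78.2%, 77.3% and 77.9%, and the 7 falls and 2 rises were still called. Every fold against liver of the 9 then moved by over 1.5 times, with falls from -8.82 to -0.84 (Slco1a1 and Abcc2, both in FGF19 + MYC tumors) and rises from 2.68 to 5.49 (Abcc4 and Slc51b, both in sgTrp53 + MYC tumors). Between Aldafermin + MYC and FGF19 + MYC tumors the count was 0 in the quasi-likelihood fits, 0 to 0 without single libraries, and 1 (Slco1a1) with the likelihood ratio test and with DESeq2. Leaving out single libraries turned the sign of differences there, none of them called: Slc10a1 ran from -0.16 (without Aldafermin + MYC replicate 4, and -0.02 without replicate 5) to 0.36, Slc51b from -0.72 (without Aldafermin + MYC replicate 5) to 1.89, Abcb11 from -0.12 (without FGF19 + MYC replicate 2) to 0.28, Slco1b2 from -1.30 to 0.49 and Abcc3 from -1.17 to 0.20 (both without FGF19 + MYC replicate 5). Against sgTrp53 + MYC tumors the leave-one-out counts ran from 0 (without sgTrp53 + MYC replicate 5, with 17.5% of all genes called) to 4. The count was 6, beside 21.2% of the genes tested, without Aldafermin + MYC replicate 4 and FGF19 + MYC replicate 5. That alternative was chosen after seeing the data and leaves out libraries high in uptake carriers. In the comparison with sgTrp53 + MYC tumors, Slco1a1 ran from -3.06 (without Aldafermin + MYC replicate 4) to 0.79 (without sgTrp53 + MYC replicate 3). Slco1a4 ran from -1.64 (without both libraries just named) to 0.35 (without sgTrp53 + MYC replicate 1). Slco1b2 passed with the likelihood ratio test (-1.40, adjusted p = 0.0435) and DESeq2 (-1.45, adjusted p = 0.0360), and without Aldafermin + MYC replicate 4 (-1.87), FGF19 + MYC replicate 5 (-1.83) or sgTrp53 + MYC replicate 4 (-1.65). Its leave-one-out estimates ran from -1.87 to -0.95. Slc51b passed without Aldafermin + MYC replicate 5 (-1.96) or FGF19 + MYC replicate 1 (-2.15), and was at -0.73 without sgTrp53 + MYC replicate 1 (adjusted p = 0.515). In the fit without a filter, 12.7% of 29921 genes were called between sgTrp53 + MYC and the other tumors, and 40.7% against liver. Slc51a was added there, giving 3 calls against the other tumors and 10 against liver. The cause of these changes was not tested. With the replicate number as a block the counts were 0, 2, 9, 9 and 9 and no call changed. The shares of all tested genes called were then 0%, 21.8%, 70%, 69.4% and 69.6%. Same-numbered libraries come from different mice and did not deviate together, with correlations from -0.33 to 0.33 and 6 of 30 over 0.1, so the numbers do not pair them. Depth limits Slco1a1 in FGF19 + MYC tumors, at 1 to 4 reads, and Slc51a.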
